A study of Mus musculus with 8 samples.

Results

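The genes described here are Gnaq, Plcb4, Itpr1, Homer3, Car8, Calb1 and Pvalb, 7 genes of calcium signalling downstream of the metabotropic glutamate receptor mGluR1 in cerebellar Purkinje cells. They were taken by gene symbol from deposited tables that list 17700 genes, and all 7 were found in every table and had enough counts to be tested. The measurements are RNA-seq counts of whole cerebellum from 8 C57BL/6JN mice with no treatment given in the labels. The old group held old 1 (male, 93 weeks), old 2 (female, 83 weeks), old 3 (male, 83 weeks) and old 4 (female, 102 weeks). The young group held young 1 and young 2 (males, 19 weeks), young 3 (female, 19 weeks) and young 4 (female, 22 weeks). The series' title asks how age-related transcript changes relate to DNA hydroxymethylation within genes, and only transcript levels were analysed here.

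Purkinje cells are the output neurons of the cerebellar cortex. Glutamate from parallel fibres activates mGluR1, which acts through the G protein alpha subunit Gq (Gnaq) on phospholipase C beta (Plcb4 and, in other Purkinje cells, Plcb3). The phospholipase releases inositol trisphosphate, which opens the receptor channel encoded by Itpr1 on the endoplasmic reticulum and lets calcium into the cytosol. Homer3 is a postsynaptic scaffold that links mGluR1 to this channel, and the carbonic anhydrase-related protein of Car8, which has no carbonic anhydrase activity, binds the channel and lowers its affinity for inositol trisphosphate. Calbindin (Calb1) and parvalbumin (Pvalb) bind the calcium that enters. Mutations of Itpr1 and Car8 cause ataxia in mice, and Calb1 is a standard marker of Purkinje cells. Gnaq is expressed by many cell types, and Pvalb also by molecular layer interneurons and by fast skeletal muscle, so whole-tissue RNA does not show which cells the reads came from.

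The genes lie on 6 chromosomes (GENCODE M21, GRCm38). Gnaq spans 16132831 to 16387463 on chromosome 19, Plcb4 135659011 to 136014593 on chromosome 2, Itpr1 108213096 to 108551109 on chromosome 6 and Homer3 70282827 to 70294361 on chromosome 8, all on the plus strand. Car8 spans 8143362 to 8239041 on the minus strand of chromosome 4, Calb1 15881264 to 15908064 on the plus strand of the same chromosome, and Pvalb 78191114 to 78206400 on the minus strand of chromosome 15. Counts cover all exons of a gene as a unit. Homer3 shares 874 exon bases, 25.4% of its exon length, with Ddx49, a gene on the opposite strand, and the strand setting of the counting is not given in the sources used here. Ddx49 stood at 9.95, 12.8, 11.6 and 11.0 CPM (the count of a gene relative to the TMM-scaled total of its library) in old 1 to old 4 and at 11.9, 7.68, 10.9 and 14.7 CPM in young 1 to young 4, far below Homer3.

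RefSeq promoter windows (GRCm38.p6), from 250 bases before to 50 bases after the transcription start, were present for 4 of the 7 genes and are shown because Gnaq and Homer3 had the most similar pattern over the libraries of any pair. The first start site is given for Plcb4 and for Pvalb. Capitals mark matches on either strand to the GC box GGGCGG (reverse complement CCGCCC) or to the nuclear receptor half-site AGGTCA (reverse complement TGACCT). Gnaq is at chr19:16132434-16132733 (plus strand), Plcb4 at chr2:135659297-135659596 (plus), Homer3 at chr8:70282749-70283048 (plus) and Pvalb at chr15:78206351-78206650 (minus).
Gnaq: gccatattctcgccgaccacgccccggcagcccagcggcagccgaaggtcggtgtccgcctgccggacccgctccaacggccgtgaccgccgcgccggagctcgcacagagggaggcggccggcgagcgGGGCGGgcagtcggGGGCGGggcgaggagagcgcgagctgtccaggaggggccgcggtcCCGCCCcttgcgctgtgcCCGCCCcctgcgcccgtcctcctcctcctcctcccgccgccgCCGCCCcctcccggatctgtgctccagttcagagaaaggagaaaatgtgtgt
Homer3: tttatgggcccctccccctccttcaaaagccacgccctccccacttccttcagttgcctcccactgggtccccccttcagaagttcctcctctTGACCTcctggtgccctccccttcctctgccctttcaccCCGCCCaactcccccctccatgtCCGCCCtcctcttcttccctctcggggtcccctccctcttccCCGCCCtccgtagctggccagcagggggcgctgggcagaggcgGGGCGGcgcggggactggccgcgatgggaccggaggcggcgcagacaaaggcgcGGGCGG
Plcb4: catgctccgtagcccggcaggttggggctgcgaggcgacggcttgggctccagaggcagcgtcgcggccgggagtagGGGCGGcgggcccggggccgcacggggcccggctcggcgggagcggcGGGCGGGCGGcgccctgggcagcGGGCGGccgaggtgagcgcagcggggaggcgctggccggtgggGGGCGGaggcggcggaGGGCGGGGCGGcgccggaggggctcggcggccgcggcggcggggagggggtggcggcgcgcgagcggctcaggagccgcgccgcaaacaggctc
Pvalb: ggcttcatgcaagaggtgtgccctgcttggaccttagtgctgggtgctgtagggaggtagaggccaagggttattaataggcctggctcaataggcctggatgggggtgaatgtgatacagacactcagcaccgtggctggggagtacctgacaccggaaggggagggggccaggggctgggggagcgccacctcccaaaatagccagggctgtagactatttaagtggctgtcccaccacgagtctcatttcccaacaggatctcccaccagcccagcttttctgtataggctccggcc

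Gnaq and Homer3 had 5 GC boxes each, Plcb4 had 7, of which some overlap each other, and Pvalb had none. The GC content was 75% for Gnaq, 69.7% for Homer3, 84.0% for Plcb4 and 58.3% for Pvalb, against a median of 52.7% over all 32851 windows. A GC box was found in 35.7% of those windows and the half-site, present once in Homer3, in 16.3%. The letters TATAAA (reverse complement TTTATA, 13.6% of windows) and CCAAT (reverse complement ATTGG, 37.4%) were in none of the 4. These matches describe letters and not binding. Itpr1, Car8 and Calb1 are named without a sequence.

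Depth was similar in all libraries, with 6079485 to 7236720 counts each. Old 1 had fewer genes at 0 counts than the other libraries, 725 against 1047 to 1461, and the reason was not tested. The tissue matched its label. All 12 granule neuron markers and all 15 Purkinje cell markers chosen for this work were tested, Gabra6, the granule neuron GABA receptor subunit, had 395 to 552 CPM in old and 423 to 769.7 CPM in young mice, and albumin stayed at or below 30.4 CPM in every library. The series' design text names liver, but liver markers summed to only 2.84 to 84.2 CPM in old and 0.682 to 21.2 CPM in young mice. The libraries were uneven in tissue that does not belong to the cerebellar cortex. Choroid plexus markers summed to 107 to 1527 CPM in old and 84.3 to 712 CPM in young mice, with old 3, young 3 and young 4 lowest, and markers of cerebellar nuclei and brainstem summed to 265 to 456 CPM in old and 269 to 516 CPM in young mice. Skeletal muscle markers, relevant to Pvalb, summed to 51.2 to 54.3 CPM in old and 51.4 to 74.8 CPM in young mice, but most of this was Ryr1, which Purkinje cells express. The muscle myosin Myh4 had 3 counts or fewer in every library and was at 0 in 5 of the 8, and muscle creatine kinase Ckm had 5 counts or fewer.

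None of the 7 genes passed the test for age. Homer3 and Itpr1 had the lowest estimates in old mice, with log2 fold changes (old minus young) of -0.22 ± 0.14 and -0.17 ± 0.11 (SE), Car8 and Gnaq stood at -0.13 each, and Calb1, Pvalb and Plcb4 lay within 0.03 of 0. In edgeR's quasi-likelihood test, with sex in the model and Benjamini-Hochberg adjustment over all 14191 genes tested, 0 of the 7 had an adjusted p under 0.05, where 17 genes of the table (0.120%) did, 14 higher in old mice (0.0987%) and 3 lower (0.0211%), and the lowest adjusted p was 0.597, for Itpr1. Unadjusted p under 0.05 was reached by 0 of the 7 and by 11.0% of all genes. DESeq2 called 0 of the 7 with 0 at an unadjusted p under 0.05, against 8.20% of all genes, and limma-voom called 0 with 2, against 12.5% of all genes. Old and young values overlapped for all 7, whereas they did not for 6.57% of all genes, 3.15% with all old values higher and 3.42% with all old values lower. The sign was negative for 6 of the 7, against 51.4% of all genes.

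Gnaq, the G protein subunit that couples mGluR1 to phospholipase, had 329, 316, 396 and 356 CPM in old 1 to old 4 and 396, 364, 386 and 377 CPM in young 1 to young 4. Old 1, old 2 and old 4 lay below every young library, and old 3 was level with the highest of them. Means were 349 ± 35.4 CPM in old and 381 ± 13.9 CPM in young mice (SD, n = 4 each), and the 95% interval of the log2 fold change ran from -0.31 to 0.06.

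Plcb4, the phospholipase, had 187, 199, 229.7 and 193 CPM in old 1 to old 4 and 195, 171, 206 and 232 CPM in young 1 to young 4. The highest old value and the highest young value were nearly equal, and the lowest of all was young 2. Means were 202 ± 19.1 CPM in old and 201 ± 25.3 CPM in young mice (SD, n = 4 each), with an interval of -0.21 to 0.23 around a log2 fold change of 0.01.

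Itpr1, the calcium release channel, had 1522, 1739, 2021 and 1795 CPM in old 1 to old 4 and 1924, 1767, 2343 and 1959 CPM in young 1 to young 4. Old 1 and old 2 lay below every young library, old 3 and old 4 lay among the young values, and young 3 was the highest of all. Means were 1769 ± 205 CPM in old and 1998 ± 244 CPM in young mice (SD, n = 4 each), and the interval was -0.41 to 0.06. Itpr1 had the most reads of the 7 genes, 9485 to 13962 counts per library. Its coefficient of variation was 11.6% in old and 12.2% in young mice, where counting alone gives 1.03% at the lowest count.

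Homer3, the scaffold, had 139, 139.9, 210.2 and 177 CPM in old 1 to old 4 and 200.1, 168, 199 and 207 CPM in young 1 to young 4. Old 1 and old 2 lay below every young library, old 4 lay above young 2, and old 3 was the highest of all 8. Means were 167 ± 34.0 CPM in old and 193.5 ± 17.4 CPM in young mice (SD, n = 4 each), with an interval of -0.52 to 0.09, the widest of the 7.

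Car8, the channel's inhibitory partner, had 1025, 1246, 1407 and 1275 CPM in old 1 to old 4 and 1303.5, 1158, 1495 and 1499 CPM in young 1 to young 4. Only old 1 lay below all young libraries, and the 2 highest values were those of the young females. Means were 1238 ± 159 CPM in old and 1364 ± 165 CPM in young mice (SD, n = 4 each), and the interval was -0.36 to 0.10.

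Calb1, the buffer calbindin, had 613.5, 744, 827.5 and 708 CPM in old 1 to old 4 and 643.5, 645, 848 and 839.8 CPM in young 1 to young 4. Both young males were low and both young females high, old 1 lay below the young males, and the other 3 old values lay between the young males and the young females. Means were 723 ± 88.6 CPM in old and 744 ± 115 CPM in young mice (SD, n = 4 each), and the log2 fold change was -0.03 with an interval of -0.26 to 0.21.

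Pvalb, the buffer parvalbumin, had 140.1, 182, 201 and 201 CPM in old 1 to old 4 and 173, 170.6, 182 and 206 CPM in young 1 to young 4. Old 1 stood below the other 7 libraries, which did not separate by age. Markers of molecular layer interneurons and Golgi cells summed to 1451 to 1643 CPM in old and 1432 to 1910.2 CPM in young mice, with 8 of 11 negative for age and a median log2 fold change of -0.05, and their part in the Pvalb level was not tested. Pvalb means were 181 ± 28.8 CPM in old and 183 ± 16.2 CPM in young mice (SD, n = 4 each), and the log2 fold change was -0.01 with an interval of -0.24 to 0.21.

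**Figure D1:**
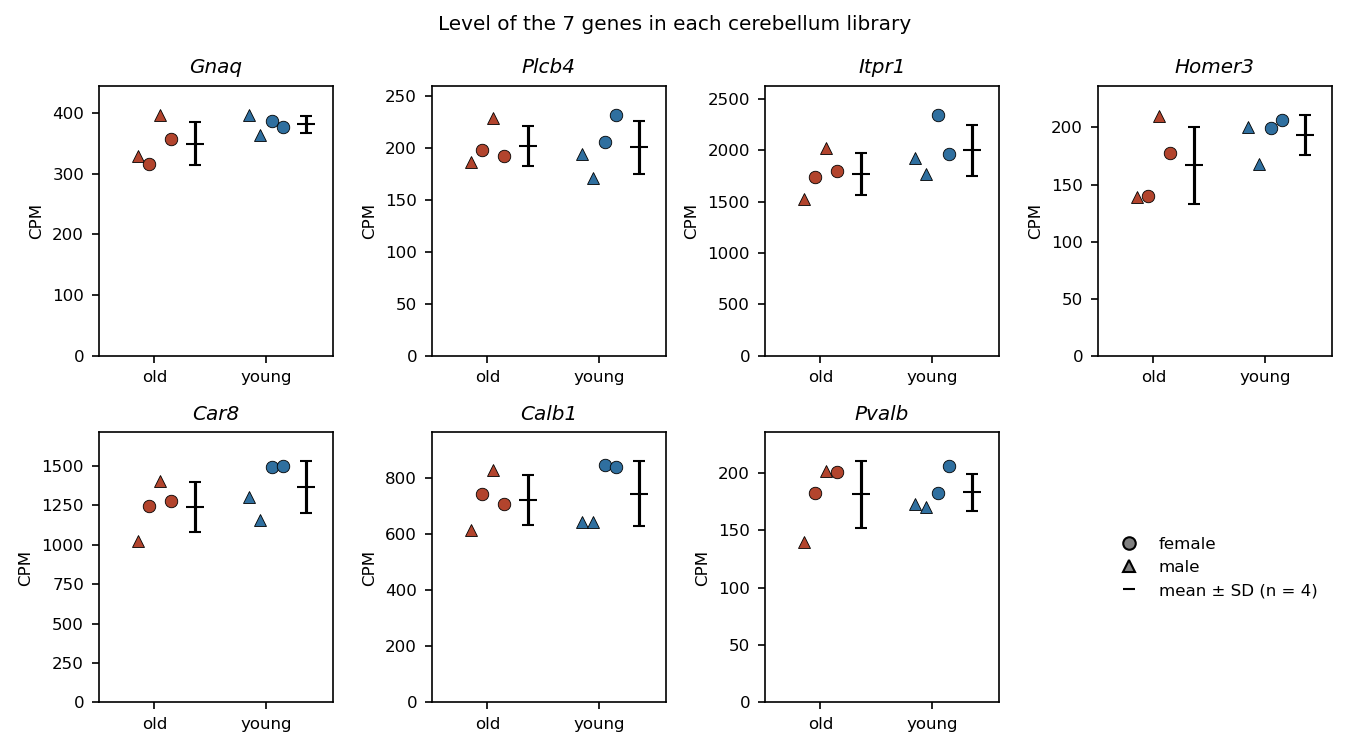
Level of each gene in library-scaled counts (CPM) in each library, old mice left and young mice right, replicates 1 to 4 from left to right within a group, circles for females and triangles for males, with the mean ± SD of the 4 mice beside them. Old and young points overlap in all 7 panels, and old 1, the first old point, is the lowest of the 8 libraries for Itpr1, Homer3, Car8, Calb1 and Pvalb.

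Scaled by exon length, the 7 genes kept a single order in all 8 libraries. Car8 was the highest, with 266 to 365 CPM per kb of exon in old and 301 to 389 in young mice. Pvalb followed with 134.5 to 193 in old and 164 to 198 in young mice, then Calb1 with 127 to 171 in old and 133 to 175 in young mice, and Itpr1 with 83.1 to 110.3 in old and 96.5 to 128 in young mice. Although Itpr1 had the most reads, its 18.32 kb of exon placed it below Calb1. Gnaq stood at 51.1 to 64.0 in old and 58.8 to 64.1 in young mice, Homer3 at 40.5 to 61.1 in old and 48.8 to 60.1 in young mice, and Plcb4 at 20.8 to 25.6 in old and 19.1 to 25.9 in young mice. Each gene was above the next in 8 of 8 libraries, yet over all libraries the ranges of Pvalb and Calb1, of Calb1 and Itpr1, and of Gnaq and Homer3 overlapped. For Calb1 and Itpr1 the overlap was slight, since only the lowest Calb1 library (old 1) lay below the highest Itpr1 library (young 3). Lengths are the union of all annotated exons, and a gene that mostly uses a short transcript would be set too low. Homer3 would also be set too low if reads in the 25.4% of its exon length shared with Ddx49 were not counted. Its place below Gnaq therefore depends on the strand setting, which is not given.

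**Figure D2:**
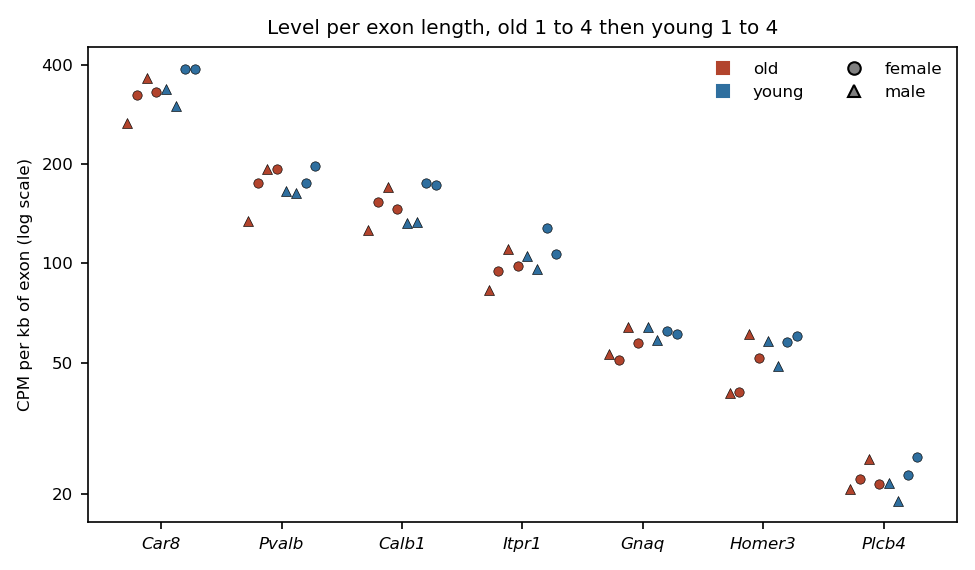
Level per kilobase of exon (CPM per kb, log scale) of the 7 genes in order of their median, with old 1 to 4 and then young 1 to 4 from left to right for each gene, circles for females and triangles for males. Car8 is highest at 266 to 389 and Plcb4 lowest at 19.1 to 25.9, and the order is the same in each of the 8 libraries.

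The spread within an age was largely shared by the 7 genes. In old 1 all 7 were below their mean over the 8 libraries, by 0.10 to 0.37 on the log2 scale, and 5 of the 7 had their lowest value there. In old 3 all 7 were above their mean, by 0.11 to 0.24, in young 4 by 0.05 to 0.22 and in young 3 by 0.01 to 0.33. The score of 15 Purkinje cell markers, none of them among the 7 (for each library, the median over markers of log2 CPM minus the marker's mean), was -0.27, -0.18, 0.14 and -0.08 in old 1 to old 4, against 0.02, -0.05, 0.21 and 0.10 in young 1 to young 4. It was lowest in old 1 and, among old libraries, highest in old 3, as were 5 and 7 of the 7 genes. The granule neuron score ran differently, at -0.13, 0.01, 0.11 and -0.39 in old 1 to old 4, against 0.31, -0.21, -0.08 and 0.38 in young 1 to young 4. The choroid plexus score and the cerebellar nuclei and brainstem score were both lowest in old 3, young 3 and young 4. In those libraries all 7 genes lay above their mean. The choroid plexus score was highest in old 2, however, and not in old 1. Whether the uneven share of such tissue had a part in the shared spread was not tested. In whole-tissue RNA, fewer Purkinje cells, less RNA per Purkinje cell and more RNA from other tissue cannot be told apart.

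**Figure D3:**
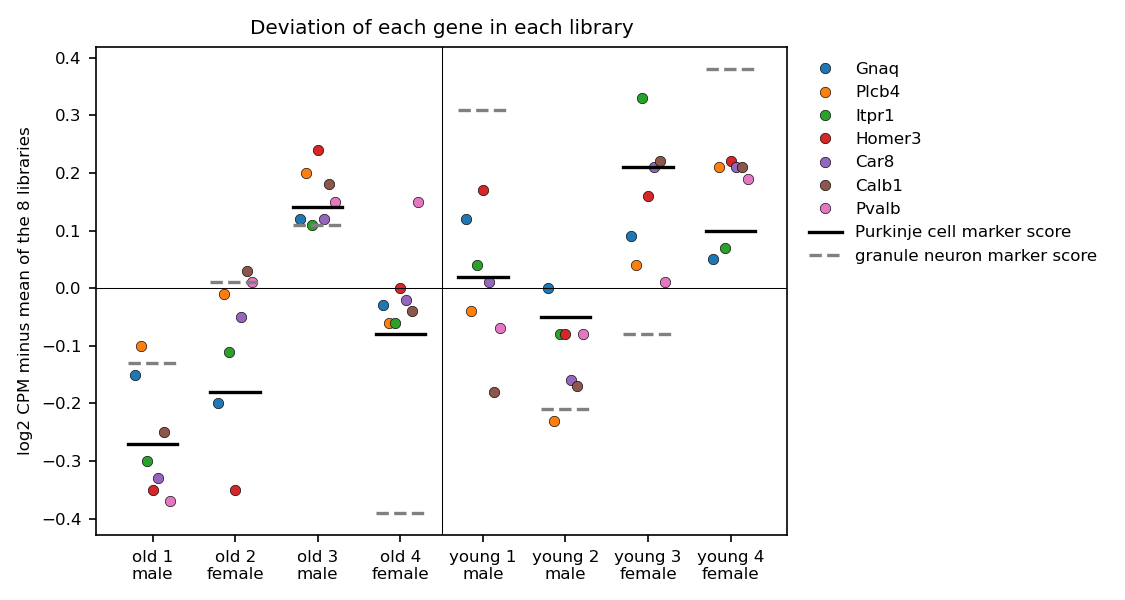
Deviation of each of the 7 genes (points) from its own mean over the 8 libraries, in log2 CPM, by library with old left of young, with the scores of the Purkinje cell markers (solid bars) and granule neuron markers (dashed bars). All 7 genes lie below 0 in old 1 and above 0 in old 3, young 3 and young 4, and the Purkinje marker score lies at -0.27 in old 1 and 0.14 in old 3.

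With the Purkinje marker score added to the model, the age estimates of the 7 genes lay between -0.02 and 0.13 on the log2 scale. Homer3 then had -0.002 and Itpr1 -0.01 ± 0.09, while Calb1 and Plcb4 had 0.13 ± 0.09 and 0.13 ± 0.10 (SE), and the lowest adjusted p was 0.773. Other scores also moved the estimates up. With the choroid plexus score instead, Homer3 had -0.099, Itpr1 -0.097, Gnaq -0.072, Car8 -0.05, Plcb4 0.103, Calb1 0.079 and Pvalb 0.051. With the granule neuron score these were -0.149, -0.15, -0.106, -0.069, 0.107, 0.028 and 0.026. Without old 3, all 7 estimates were negative, Homer3 at -0.37 ± 0.10, Itpr1 at -0.28 ± 0.09, Car8 at -0.25 ± 0.08 and Gnaq at -0.19 ± 0.08. Those 4 then had an unadjusted p under 0.05 by edgeR's quasi-likelihood test, as had 13.6% of all genes in that fit, but 0 of 7 passed after adjustment (lowest adjusted p = 0.133, for Homer3), against 0.345% of all genes. Old 3 was singled out after its values were seen. With any other single library left out, 0 of the 7 had an unadjusted p under 0.05 by the same test. Without old 1, Homer3 was at -0.13 and Itpr1 at -0.12, and without old 2 Homer3 was at -0.11 and Itpr1 at -0.13, so leaving out either low old library brought both estimates nearer to 0.

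**Figure D4:**
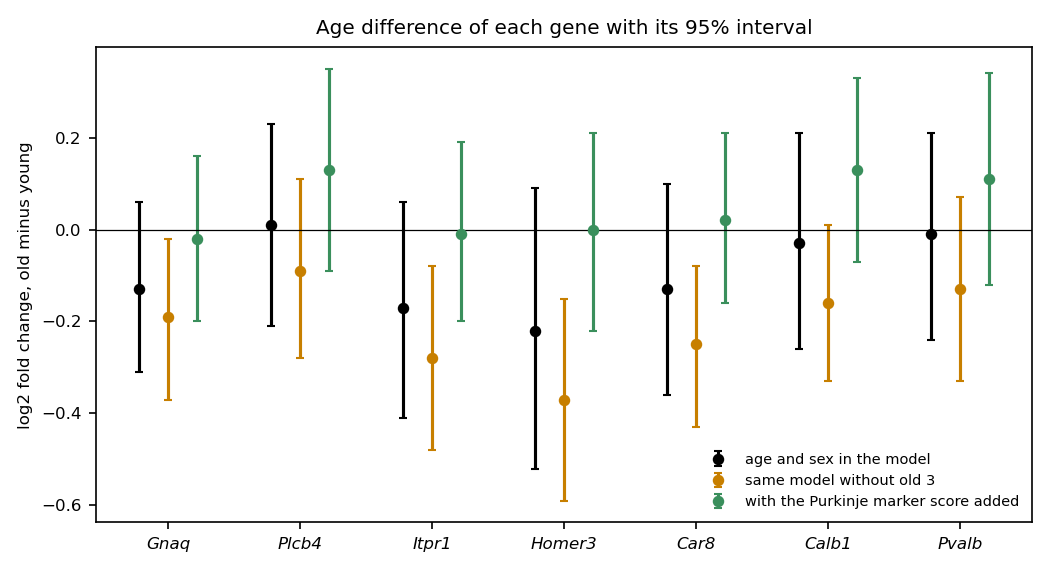
Log2 fold change, old minus young, of each gene with its 95% interval, from the model with age and sex (black), the same model without old 3 (orange) and the model with the Purkinje cell marker score added (green). All black intervals include 0, the estimates without old 3 range from -0.09 to -0.37, and those with the marker score range from -0.02 to 0.13.

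Proportions within a library varied less than levels for some pairs. The CPM ratio of Itpr1 to Car8, the channel and its inhibitory partner, was 1.49, 1.40, 1.44 and 1.41 in old 1 to old 4, against 1.48, 1.53, 1.57 and 1.31 in young 1 to young 4, a narrower range than that of either gene. Car8 to Calb1 was 1.67, 1.68, 1.70 and 1.80 in old and 2.03, 1.80, 1.76 and 1.78 in young mice, so old 1, low for both genes, did not stand apart. Of the 21 ratios between pairs of the 7 genes, 0 separated old from young libraries. For the ratios of Gnaq, Itpr1, Homer3 and Car8 to Plcb4, picked after their values were seen, young 1, young 2 and young 3 lay above all old libraries and young 4 within the old values. Homer3 to Plcb4 was 0.821 ± 0.112 in old and 0.967 ± 0.0571 in young mice, and Gnaq to Plcb4 was 1.73 ± 0.106 in old and 1.92 ± 0.219 in young mice (SD, n = 4 each).

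Sex gave no call either. By edgeR's quasi-likelihood test 0 of the 7 genes had an adjusted p under 0.05 for sex, where 0.0423% of all genes did (0.0141% higher and 0.0282% lower in females), and 0 had an unadjusted p under 0.05, against 4.76% of all genes. DESeq2 also called 0 of the 7, with 0 at an unadjusted p under 0.05 against 3.27% of all genes, and so did limma-voom, with 2 of the 7 against 6.45%. Calb1 had the largest estimate, 785 CPM in females and 682 CPM in males on average, a log2 fold change (female minus male) of 0.20 ± 0.11 (SE) with an interval of -0.04 to 0.44 and edgeR's adjusted p of 0.930. Pvalb and Car8 each had 0.17 ± 0.10, Itpr1 0.11 ± 0.11, Plcb4 0.09 ± 0.10, Homer3 0.00 ± 0.14 and Gnaq -0.05 ± 0.08. Without old 3, a male with high values, Calb1 stood at 0.33 and 4 of the 7 had an unadjusted p under 0.05, against 8.36% of all genes in that fit, with 0 of 7 past the adjustment (lowest adjusted p = 0.154, for Calb1, by edgeR's test). With any other single library left out, 0 of the 7 had an unadjusted p under 0.05 for sex by that test.

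The age difference was estimated apart in each sex, with 2 mice in each cell. In females all 7 log2 fold changes (old minus young) were negative, from -0.36 ± 0.19 (SE) for Homer3 and -0.28 ± 0.15 for Itpr1 to -0.02 ± 0.16 for Pvalb. In males they ran from -0.07 ± 0.19 for Homer3 and -0.07 ± 0.12 for Gnaq to 0.19 ± 0.13 for Plcb4. Calb1 averaged 726 CPM in old and 844 CPM in young females, but 721 CPM in old and 644 CPM in young males. The old males lay on either side of both young males, old 1 at 613.5 CPM and old 3 at 827.5 CPM. Tested directly, the female difference minus the male one was -0.38 ± 0.19 for Calb1 (interval -0.81 to 0.05) and -0.35 ± 0.18 for Plcb4 (interval -0.75 to 0.06). By edgeR's test 0 of the 7 genes passed the threshold or had an unadjusted p under 0.05, against 0.00% and 2.30% of all genes. DESeq2 and limma-voom also called 0 of the 7, where they called 1 and 0 of all genes.

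Across the 8 libraries the patterns of the 7 genes were alike to different degrees, which is given here as Pearson's r of log2 CPM, a description over libraries that share their scaling and tissue make-up. Over the 21 pairs r ran from 0.38 (Gnaq and Calb1) to 0.96 (Gnaq and Homer3), with a median of 0.75, and from 0.40 to 0.94, with a median of 0.73, after the mean of each age was removed. Itpr1 and Car8 had 0.90 and Car8 and Calb1 0.89. Homer3 was the 4th gene most like Gnaq among 13235 genes, and Car8 was the 38th most like Itpr1, while Calb1 ranked 3448th for Gnaq. Without old 1 and old 2, the libraries farthest from the median of Gnaq, its r with Homer3 was 0.83. With the same libraries left out, Gnaq had 0.61 with Itpr1, 0.52 with Plcb4, 0.51 with Car8, 0.31 with Calb1 and -0.11 with Pvalb. Over all 8 libraries these were 0.75, 0.42, 0.67, 0.38 and 0.44. Leaving out old 1 and young 4, the farthest for Car8, took its r with Pvalb from 0.82 to 0.40 and with Itpr1 from 0.90 to 0.92.

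Genes outside the 7 with the closest patterns were, for Itpr1, Arhgef33, Ust and Tmem200b, with r of 0.98, 0.97 and 0.97 over 8 libraries, and for Car8, Pex26 and Ppp1r17, with 0.97 and 0.96. Arhgef33 and Ppp1r17 were on the list of Purkinje cell markers. For Homer3 they were Fra10ac1, Ywhah and Cdk2ap2 (0.97 each), and Ywhah, a 14-3-3 protein, also led for Gnaq at 0.98, ahead of Puf60 and Nsg1 at 0.96 each. Calb1 was nearest to Ncoa2 and Herpud2 (0.96 each) and Asph (0.95), Plcb4 to Man1c1, Pnpla3 and Arfgap2 (0.97 each), and Pvalb to Hmces (0.97), Rpl29 and Txndc15 (0.96 each). Of these genes, 0 passed edgeR's test for age, and their log2 fold changes lay between -0.32 and 0.03.

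The wider pathway was described by 5 lists holding 61 genes, of which 60 were tested. Oncomodulin (Ocm), a parvalbumin relative, had 0 or 1 count in each library and was not. By edgeR's quasi-likelihood test 0 of the 60 passed for age (lowest adjusted p = 0.126), 15 (25%) had an unadjusted p under 0.05 against 11.0% of all genes, and 46 (76.7%) had negative log2 fold changes against 51.4%. Their median was -0.11, against -0.01 over all genes tested. DESeq2 called 2 of the 60, Gng13 and Slc8a1, where it called 125 of all genes (0.881%), and limma-voom called 0. Old values lay below all young values for 3 of the 60 (5%), Gng13, Calm3 and Slc8a1, against 3.42% of all genes.

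Of the 8 receptor, G protein and regulator genes 6 were negative, against 51.4% of all genes, with a median of -0.18. Gng13, a G protein gamma subunit of Purkinje cells, had 72.8, 64.0, 88.4 and 65.6 CPM in old 1 to old 4 and 102.2, 91.9, 96.1 and 95.3 CPM in young 1 to young 4. The groups did not overlap, and old 3 was again the old library nearest to the young ones. Its log2 fold change was -0.41 ± 0.09 (SE) and edgeR's test gave an adjusted p of 0.126, or 0.0379 without old 3. The receptor kinase Grk2 had -0.24 ± 0.10, and Rgs8, which speeds the turning off of G proteins, -0.25 ± 0.12.

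The 13 phospholipase, lipid and inositol phosphate enzymes included 9 negative ones, against 51.4% of all genes, with a median of -0.11. Itpka, the kinase that phosphorylates inositol trisphosphate, had 51.4 ± 8.76 CPM in old and 66.1 ± 9.90 CPM in young mice (SD, n = 4 each), and its log2 fold change was -0.36 ± 0.14 (SE). Dgkz, a diacylglycerol kinase, had -0.23 ± 0.10 and Plcb3, a relative of Plcb4, -0.27 ± 0.13.

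Among the 12 calcium store genes 7 were negative, against 51.4% of all genes, with a median of -0.05. Itpr3, a relative of Itpr1 with little expression in Purkinje cells, ran the other way, with 43.6 ± 5.77 CPM in old and 30.6 ± 8.41 CPM in young mice (SD, n = 4 each). Its log2 fold change was 0.51 ± 0.17 (SE), and edgeR's test gave an adjusted p of 0.299. Itpr3 passed that test with the granule neuron score in the model (0.72, adjusted p = 0.0177), where 0.768% of all genes passed, and without old 2, old 3 and young 4 (0.61, adjusted p = 0.0489), where 1.09% did. The pump Atp2a3 had 137.6 ± 34.1 CPM in old and 183.5 ± 27.3 CPM in young mice. Its log2 fold change was -0.42 ± 0.18, and -0.63 ± 0.11 without old 3 (adjusted p = 0.0395 by the same test). The ryanodine receptor Ryr1, another release channel, had -0.26 ± 0.11. The scaffolds, channels and kinases held 11 negative genes of 14, against 51.4% of all genes, with a median of -0.09. Among the negative ones were the calmodulin-dependent kinase subunit Camk2b at -0.24 ± 0.10 and the calcium channel Cacna1g at -0.24 ± 0.13.

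All 13 tested genes of the other calcium buffers and extrusion list were negative, against 51.4% of all genes, with a median of -0.20. By edgeR's test 6 of them had an unadjusted p under 0.05, against 11.0% of all genes. Slc8a1, a sodium-calcium exchanger, had 541, 525, 484 and 471 CPM in old 1 to old 4 and 672, 639, 589 and 615 CPM in young 1 to young 4. The groups did not overlap, and old 3 lay among the low values here, unlike in the 7 genes. The log2 fold change was -0.31 ± 0.08 (SE), and the adjusted p was 0.150 in edgeR's test and 0.00875 in DESeq2. The calcium pump Atp2b4 had -0.35 ± 0.10 and the exchanger Slc8a3 -0.23 ± 0.07, whereas Calb1 and Pvalb, the buffers among the 7, stood at -0.03 and -0.01.

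**Figure D5:**
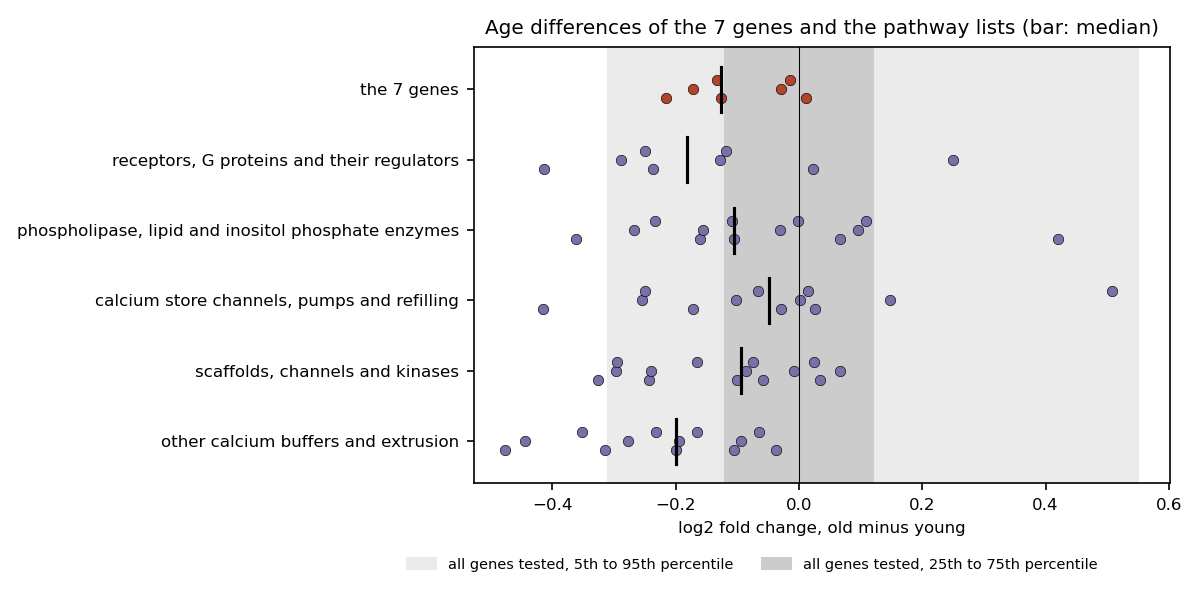
Log2 fold change, old minus young, of the 7 genes (red) and of each tested gene of the 5 pathway lists (violet), with the median of each row as a bar and the 5th to 95th and 25th to 75th percentiles of all 14191 genes tested as grey bands. The medians lie between -0.20 and -0.05, and the points span -0.48 to 0.51.

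The marker lists of cell types had estimates for age of their own, given here beside those of the pathway. Purkinje cell markers were negative in 14 of 15, with a median log2 fold change of -0.25 and with Pcp2, an abundant Purkinje transcript, as the exception at 0.17 ± 0.11 (SE). Granule neuron markers were negative in 11 of 12, with a median of -0.19, and 9 of 9 microglia markers and 10 of 10 choroid plexus markers were positive, with medians of 0.76 and 1.14. Summed choroid plexus CPM overlapped between the ages. Bergmann glia and astrocyte markers were negative in 8 of 10, with a median of -0.14. Of these, 1 passed edgeR's test as lower in old mice, against 0.0211% of all genes. By that test 4 of 15 Purkinje, 1 of 12 granule neuron and 4 of these 10 glia markers had an unadjusted p under 0.05. It was also reached by 1 of the 10 choroid plexus markers and 7 of the 9 microglia markers. The share over all genes was 11.0%, and 51.4% of all genes were negative. Gng13, Rgs8 and Itpka are among the genes that stand in both the Purkinje list and a pathway list. With the Purkinje, granule neuron or choroid plexus score added to the model, 0, 1 and 0 of the 60 pathway genes passed. Over all genes, 0, 109 (0.768%) and 0 passed in the same fits. The median of the receptor list was then -0.055, -0.094 and -0.138, that of the scaffold list 0.008, -0.097 and -0.049, and that of the buffer and extrusion list -0.180, -0.184 and -0.191.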

How the data were processed

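RNA was extracted from frozen cerebellum and made into ribosome-depleted total RNA libraries, per the labels' protocols. The authors deposited 1 table per library with gene names and read counts, whole numbers whose sums differ between libraries, and the deposited counts were used as they are. The submitters' processing notes name Trimmomatic 0.39, STAR 2.7.5b and featureCounts, with GRCm38 (mm10) as build. Annotation, strand setting and handling of multi-mapping reads: not given in the sources used here. The series' design text names liver, whereas the sample labels give cerebellum, and the labels were followed. Date-like names stood in for 24 gene symbols in 7 of the 8 tables, none of them among the 7 genes, so rows were matched by position, using names from old 1.

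Genes were kept by edgeR's filterByExpr (minimum 10 counts, 4 age-by-sex cells), leaving 14191. Counts were scaled by TMM, and log2 CPM used a prior of 2. Age and sex were fitted together over all 8 libraries by edgeR 4.0.16 in R 4.3.3 (robust quasi-likelihood, newer dispersion method). Age by sex was tested on the 4 cells. Benjamini-Hochberg adjustment covered every gene tested, and calls needed an adjusted p under 0.05. Standard errors were derived from each estimate and its F value. Alternatives were DESeq2 1.42.0 (Wald test and size factors), limma-voom (limma 3.58.1), raw totals, other filters, older dispersions, other covariates and left-out libraries. The test was checked on simulated counts with 200 changed genes. Of changes of 1.5-fold it recovered 53.7% for age, 50.7% for sex and 0% for age by sex. Changes under 1.5-fold were not simulated.

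All 28 pairs of libraries differed by more than sampling noise (chi-square over degrees of freedom of 3.96 to 10.92), so each was counted once. The series' design text gives 4 biological replicates a group. Marker and pathway lists, the 7 genes and the alternatives were chosen with earlier results of these data known. Pathway genes named are, in each list, those past the test or else the 3 with the smallest p for age; Calm3 was named after its values were seen, as was the choice of ratios, of neighbouring gene Ddx49 and of single marker genes. Genes of like pattern are the 3 with the highest r among those whose log2 CPM averaged 1 or more. Some genes that these rules pick are not reported here. Lists were described by counts and medians, with no set test.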

Additional observations from a re-analysis of the deposited data

How the results depend on the processing

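None of the 7 genes passed the test for age, sex or age by sex under any alternative run. The number of genes past the threshold for age, 17 of all tested, was 36 with raw library totals, 125 by DESeq2, 1 by limma-voom, 26 with older dispersions, 103 with age in weeks, 155 without old 2, old 3 and young 4, and 4 without old 3, young 3 and young 4. With a marker score as a covariate it was 0 (Purkinje), 109 (granule neuron) and 0 (choroid plexus). Leaving out 1 library gave 2, 54, 49 and 11 without old 1 to old 4 and 2, 8, 0 and 0 without young 1 to young 4. Pathway genes past the threshold, 0 in the main model, numbered 2 by DESeq2, 1 with the granule neuron score, 2 without old 2, old 3 and young 4, and 0 to 2 with 1 library left out. For sex, 6 genes passed, and 4 to 43 with 1 library left out, the 43 without old 3. For age by sex, 0 passed and 1 by DESeq2, with 326 at an unadjusted p under 0.05. The cause of these shifts was not tested.

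Replicate numbers showed no sign of pairing the mice: deviations of same-numbered old and young libraries had r of -0.252 to 0.156, and 0 of 4 old libraries matched its own number best. A shared processing order was not tested. With the replicate block 1 gene passed for age, and for sex Homer3 had -0.170 and Pvalb -0.023.

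Some estimates changed sign, none of them past the threshold. For age, Plcb4 was -0.010 by limma-voom, -0.004 with age in weeks and -0.023 without old 2, old 3 and young 4. Calb1 and Pvalb were 0.016 and 0.030 with raw totals, 0.132 and 0.111 with the Purkinje score, 0.028 and 0.026 with the granule score and 0.079 and 0.051 with the choroid plexus score. Pvalb was 0.009 with the filter of 50 counts and Car8 0.025 with the Purkinje score. For sex, Homer3 was -0.006 with DESeq2 size factors, -0.006 by the DESeq2 test, -0.008 with no filter and -0.006 with the filter of 50 counts. For age by sex, Pvalb was 0.002 with DESeq2 size factors, 0.042 with raw totals, 0.003 by the DESeq2 test, 0.011 by limma-voom, 0.004 with no filter and 0.018 with the filter of 50 counts. With 1 library left out, the age estimates ran from -0.086 to 0.082 for Plcb4, -0.159 to 0.034 for Calb1 and -0.126 to 0.080 for Pvalb, and the sex estimates from -0.092 to 0.017 for Gnaq and -0.081 to 0.159 for Homer3. Gnaq, Itpr1 and Homer3 kept a negative age estimate under every alternative. The 7 genes had 869 or more counts in each library.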
